A study of Mus musculus with 51 samples.

Results

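Kidneys of fetal mice collected at CT40 were compared with those collected 4 h earlier, at CT36. CT counts the hours of the series from embryonic day 18. CT40 is labelled embryonic day 19 plus 16 h, and CT36 embryonic day 19 plus 12 h. Both groups are wild-type C57BL/6 fetuses with no treatment named, and each holds 4 libraries, so the comparison uses 8 of the 51 libraries of the series. The groups were taken from the time in each sample's label. The series, whose title names the circadian clock and developmental time in the kidney, sampled 13 time points every 4 h from CT0 to CT48, and its design text names an end at E20.5 where the labels end at embryonic day 20. Poly-A RNA was sequenced on Illumina instruments. The labels call the libraries biological replicates and name no dam or litter. Littermates may therefore make up a time point, so litter and time point cannot be told apart, and the p-values measure only the spread between these libraries.

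The kidney at this age is still adding nephrons. Dividing progenitors and the branching ureteric bud lie at its edge, while inside it the proximal tubule, the loop of Henle and the podocytes take up their transport and filtration functions. In adult tissues a clock loop, in which PER and CRY proteins repress their own activators CLOCK and BMAL1, drives output factors such as TEF, and daily temperature and feeding signals also move transcripts. Cold-inducible RNA-binding proteins rise when cells cool, and heat shock proteins, which fold other proteins, rise when cells warm or misfold proteins.

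The deposited values are normalised whole numbers, called values below, and do not give sequencing depth. Their totals in the 8 libraries lie between 34226024 and 34925644. Differences are log2(value + 1) at CT40 minus CT36, with the standard error (SE) from limma, and a gene was called when its Benjamini-Hochberg adjusted p was under 0.05 over the 14542 genes with a mean of at least 10. Kidney markers were present in every library, and Pax2, a transcription factor of the nephron lineage, lay between 4486 and 5929 at CT40 and between 4584 and 5815 at CT36. Skeletal muscle genes, a sign of neighbouring tissue, summed to between 730 and 4844 at CT40, with the top in replicate 3, and to between 726 and 1970 at CT36, with the top in replicate 4; 0 of the 15 tested passed. The liver list summed to between 10075 and 16138 at CT40 and between 10512 and 12075 at CT36, where abundant genes such as Afp set the sum. Its mean log2 value lay higher at CT40, between 7.387 and 7.954, than at CT36, between 6.381 and 7.205, without overlap. The list's median difference was 0.41; 1 of its 13 genes, Fga, was called, and 4 were called higher in a fit of the 8 libraries alone.

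Some libraries are not independent or stand apart. CT36 replicates 2 and 3 differed by an SD of 0.081 in log2 over 7771 genes with a mean of at least 1000, against 0.157 to 0.203 between the other CT36 pairs and 0.159 to 0.196 between CT40 libraries. Replicate 3 carries another ID prefix, as does CT12 replicate 4. The log2 ratio of CT36 replicate 3 to replicate 2, added to that of CT12 replicate 4 to replicate 3, had an SD of 0.00391 and lay within 0.01 of 0 for 99% of these genes. These 4 libraries are therefore tied numerically, and results are also given with CT36 replicates 2 and 3 averaged as 1 sample. CT36 replicate 4 lies apart on the third principal component, at -36.8, where the other 7 libraries lie between -5.9 and 5.6. CT40 replicate 3 lies nearest to CT40 replicates 1 (SD 0.172) and 2 (0.176), but nearer to CT36 replicate 3 (0.177) than to CT40 replicate 4 (0.194).

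**Figure D1:**
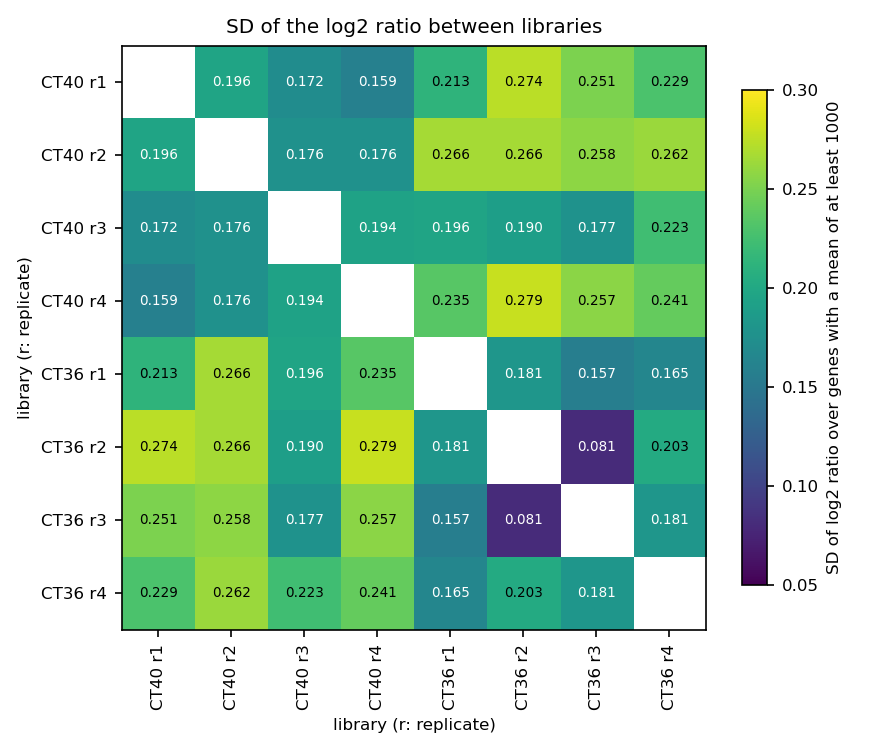
Heat map of the standard deviation of the log2 ratio between each pair of the 8 libraries, over genes with a mean of at least 1000; both axes list the CT40 libraries and then the CT36 libraries (r, replicate). The pair of CT36 replicates 2 and 3 has the lowest value, 0.081, and CT36 replicate 2 against CT40 replicate 4 the highest, 0.279.

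Across all tested genes 2553 were called (17.6%), 1219 higher at CT40 (8.38%) and 1334 lower (9.17%). Most differences were small, with a median size of 0.32 among the calls, and 48 genes were at least 2-fold higher and 28 at least 2-fold lower. The groups did not overlap for 2772 of the tested genes (19.1%). Without CT36 replicate 4 the numbers were 1072 higher and 1246 lower, and 2045 of the calls were shared. With CT36 replicates 2 and 3 averaged they were 848 higher and 960 lower, and 1781 of the calls were shared. In bulk tissue fewer cells of a type and less RNA per cell cannot be told apart.

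The same clock step a day earlier, CT20 against CT16, lies in the first library series and shares no library with CT40 and CT36. There 1747 of 14336 genes were called (12.2%), 1089 higher (7.6%) and 658 lower (4.59%). Of those calls 62.3% were higher, and 48.3% were with quantile normalisation. The difference of both steps, tested in 1 model over all 51 libraries, was called for 2229 of 14426 genes (15.5%). Leaving out CT20 replicate 2 left 521 calls for CT20 against CT16, and leaving out CT16 replicate 1 or CT20 replicate 3 left 982 and 988.

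Cirbp and the splicing regulator Ptbp2 were among the 10 largest rises. Cirbp, which encodes an RNA-binding protein that rises in cooled cells (chromosome 10, 80165985 to 80172786, GRCm38), had values of 5168, 5226, 4983 and 5266 at CT40 and 2315, 2808, 2778 and 2201 at CT36. The groups lay far apart and the CT40 libraries were close together. The difference was 1.04 ± 0.09 (SE, adjusted p = 1.31e-07, limma). Means of Cirbp were 1528, 1208, 2526, 5161, 5208 and 4979 from CT28 to CT48, so it was also 1.06 higher at CT36 than at CT32 and differed by 0.01 between CT44 and CT40; those neighbouring differences share libraries with the step itself. A day earlier Cirbp was 0.70 ± 0.16 higher at CT20 than at CT16 (adjusted p = 0.00922), and the steps' difference of 0.34 did not pass (adjusted p = 0.374). Rbm3, the other cold-inducible gene, averaged 14350 ± 840 at CT40 and 12200 ± 376 at CT36 (SD, n = 4 each; 0.23 ± 0.08 SE, limma adjusted p = 0.0326), and lost its call in 5 of the 8 fits without a library and with replicates 2 and 3 averaged (limma adjusted p = 0.0637).

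**Figure D2:**
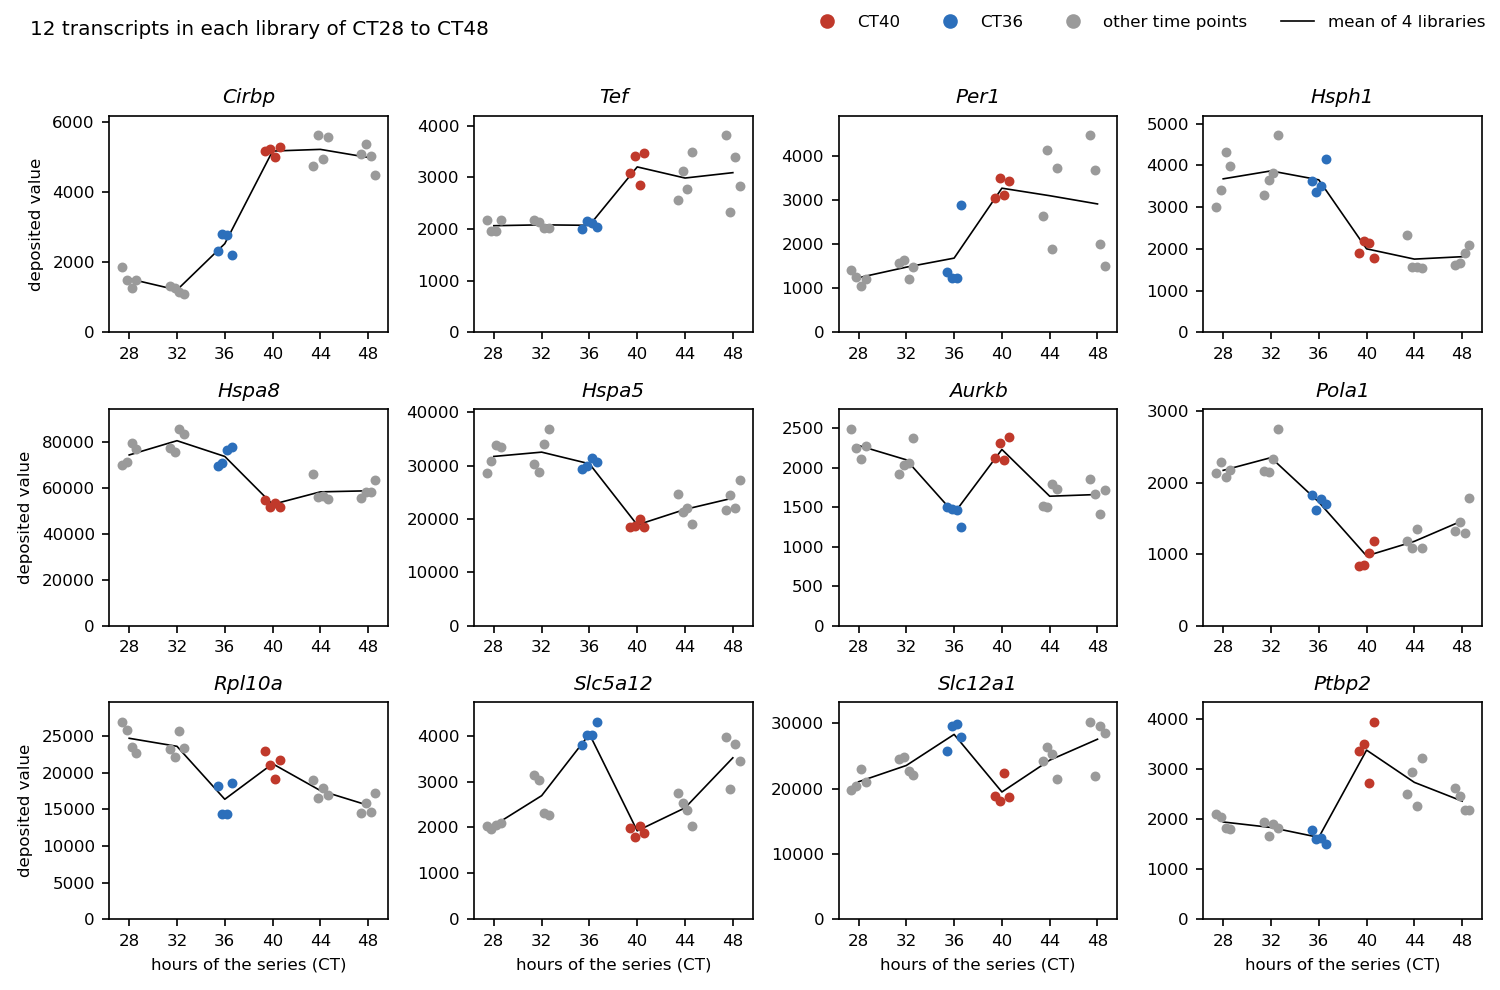
Deposited values (y axis, from 0) of 12 transcripts in each library from CT28 to CT48 (x axis, hours of the series); points are libraries, CT40 in red, CT36 in blue, and lines join the means of 4 libraries. The CT40 and CT36 points do not overlap in any panel, and in Per1 CT36 replicate 4 lies near the CT40 libraries.

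Clock genes changed in part. Of the 7 tested core repressors 3 rose and 0 fell, with a median of 0.35 beside 0.014 over all genes, 4 rose without CT36 replicate 4, and 1 rose without CT36 replicate 1 or CT40 replicate 2. The CLOCK and BMAL1 group (Arntl, Clock and Npas2) had 0 of 3 called, with differences of 0.05, 0.15 and -0.08. Tef, a PAR bZIP output factor, had 3087, 3414, 2844 and 3465 at CT40 and 1996, 2150, 2111 and 2032 at CT36, with no overlap. It rose by 0.62 ± 0.10 (SE, limma adjusted p = 0.000255), while the same step a day earlier gave 0.14 (limma adjusted p = 0.055) and the steps differed by 0.48 ± 0.11 (limma adjusted p = 0.00255). Dbp and Hlf, its relatives, gave 0.01 and 0.16 and were not called.

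Per1, a core repressor that many signals induce, had 3031, 3487, 3107 and 3424 at CT40 and 1366, 1242, 1240 and 2874 at CT36. CT36 replicate 4 lay close to the CT40 libraries and the others far below. The difference was 1.05 ± 0.32 (SE, limma adjusted p = 0.0275), and 1.34 without that library (limma adjusted p = 0.00608). The call was lost without CT36 replicate 1, 2 or 3 and without CT40 replicate 2 or 4, and with replicates 2 and 3 averaged (limma adjusted p = 0.0841). Per2 had 884, 1093, 728 and 1059 at CT40 and 629, 472, 479 and 1180 at CT36. It did not pass (0.54 ± 0.24 SE, limma adjusted p = 0.127) and did without CT36 replicate 4 (0.83, limma adjusted p = 0.0034).

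Of the cryptochromes, Cry1 averaged 1533 ± 216 at CT40 and 1203 ± 149 at CT36 (SD, n = 4 each; 0.35 ± 0.10 SE, limma adjusted p = 0.017), and lost its call without CT36 replicate 1 or CT40 replicate 2. A day earlier Cry1 fell by 0.27 on the log2 scale (limma adjusted p = 0.0029), and the steps differed by 0.62 ± 0.12 (limma adjusted p = 0.000324). Cry2 rose by 0.39 ± 0.10 (limma adjusted p = 0.00573) and Nr1d2, a nuclear receptor that represses Arntl, by 0.41 ± 0.11 (limma adjusted p = 0.00953). Nr1d1, its close relative, gave 0.05 and was not called.

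Promoter sequences are shown for genes of the heat shock, unfolded protein response and mitosis lists, as some members of each list hold the same motif there. Windows run from 250 bases before to 50 after the start (RefSeq, GRCm38.p6), are written on the gene's strand, and 480 of the 647 listed genes have one. Capitals mark matches on either strand, to GAANNTTC or TTCNNGAA (the heat shock element that the factor HSF1 binds) in Hsph1 and Chordc1, where neighbouring matches overlap, to CCAAT and CCACG with 9 bases of any kind between them (the endoplasmic reticulum stress element) in Hspa5 and Calr, and to TTTGAA (the cell cycle genes homology region) in Kif23. The last 2 motifs were searched after the values of the lists had been seen.
Hsph1 (chr5:149636287-149636586, - strand): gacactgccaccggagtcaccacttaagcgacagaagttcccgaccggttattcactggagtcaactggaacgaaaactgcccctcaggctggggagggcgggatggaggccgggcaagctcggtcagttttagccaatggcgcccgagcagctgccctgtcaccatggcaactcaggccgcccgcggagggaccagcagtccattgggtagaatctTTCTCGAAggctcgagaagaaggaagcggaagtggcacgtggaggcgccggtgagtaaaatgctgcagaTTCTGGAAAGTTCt
Chordc1 (chr9:18292017-18292316, + strand): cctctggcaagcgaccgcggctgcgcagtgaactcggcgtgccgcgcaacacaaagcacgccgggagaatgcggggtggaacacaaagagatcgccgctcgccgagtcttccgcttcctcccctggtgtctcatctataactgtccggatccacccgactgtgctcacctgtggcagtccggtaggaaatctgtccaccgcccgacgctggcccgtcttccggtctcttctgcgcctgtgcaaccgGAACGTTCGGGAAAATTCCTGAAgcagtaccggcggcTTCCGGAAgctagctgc
Hspa5 (chr2:34771840-34772139, + strand): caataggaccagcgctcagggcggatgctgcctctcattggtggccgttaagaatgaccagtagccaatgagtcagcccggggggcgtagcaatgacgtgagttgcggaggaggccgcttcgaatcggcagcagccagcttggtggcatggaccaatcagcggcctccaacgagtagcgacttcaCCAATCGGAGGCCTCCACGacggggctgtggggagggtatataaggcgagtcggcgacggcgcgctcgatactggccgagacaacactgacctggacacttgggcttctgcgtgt
Calr (chr8:84846882-84847181, - strand): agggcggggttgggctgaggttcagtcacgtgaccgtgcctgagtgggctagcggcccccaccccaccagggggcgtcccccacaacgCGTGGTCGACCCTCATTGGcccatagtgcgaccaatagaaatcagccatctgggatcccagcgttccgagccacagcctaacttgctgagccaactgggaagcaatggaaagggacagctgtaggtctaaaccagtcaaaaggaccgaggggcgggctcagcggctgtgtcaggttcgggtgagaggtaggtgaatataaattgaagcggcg
Kif23 (chr9:61946750-61947049, - strand): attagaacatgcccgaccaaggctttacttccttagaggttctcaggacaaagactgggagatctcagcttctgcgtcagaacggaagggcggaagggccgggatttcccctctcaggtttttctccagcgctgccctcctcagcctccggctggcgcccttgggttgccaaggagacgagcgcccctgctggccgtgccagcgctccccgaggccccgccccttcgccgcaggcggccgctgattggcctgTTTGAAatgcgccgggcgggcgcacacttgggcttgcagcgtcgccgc

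GAANNTTC was found in 9 of the 15 heat shock list genes with a window (60%), against 9.04% of 27025 genes, and TTCNNGAA in 4 of 15 (26.7%), against 9.6%. The endoplasmic reticulum stress element was found in 4 of 22 genes of the unfolded protein response list (18.2%), against 0.137%, and TTTGAA in 15 of 20 mitosis genes (75%), against 20.2%, and in 2 of 22 DNA replication genes (9.09%). The E-box CACGTG was found in 4 of 6 clock repressors (66.7%), against 8.09% of all genes. These were Per1, Cry1, Bhlhe41, which was not called, and Ciart, which was not tested. It was also found in 1 of 4 PAR bZIP factors, Tef, in 0 of 4 clock nuclear receptors and in 0 of 3 activators. In the other lists shares ran from 0% (loop of Henle and distal tubule among them) to 26.7% (immediate early genes). The cAMP response element TGACGTCA was found in 0 of 6 clock repressors, against 2.03% of all genes, and the D-box TTATGTAA in 1 of 6, against 1.11%. A match describes the letters of the window and is not a binding site shown here.

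Heat shock proteins fell at CT40. Of 20 tested genes 10 fell and 1 rose, with a median of -0.23, and without CT36 replicate 4 11 fell and 1 rose. Hsph1, a co-chaperone of the HSP70 family, had 1892, 2182, 2145 and 1791 at CT40 and 3616, 3356, 3505 and 4144 at CT36. All 4 CT40 libraries lay far below the CT36 libraries, with a difference of -0.87 ± 0.13 (SE, limma adjusted p = 0.000201). Hspa8, the constitutive HSP70, had 54526, 51438, 53189 and 51727 at CT40 and 69593, 70626, 76226 and 77739 at CT36 (-0.48 ± 0.06 SE, limma adjusted p = 5.91e-06). Chordc1, an HSP90 co-chaperone, fell by 0.71 on the log2 scale, and Hsf1, the factor that induces the family, by 0.49.

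Hsp90ab1, a constitutive HSP90, was the member that rose (0.13 ± 0.04 SE, limma adjusted p = 0.0395), while Hsp90aa1, the inducible one, fell by 0.29 on the log2 scale. With CT36 replicates 2 and 3 averaged 9 of the list fell and 0 rose, so Hsp90ab1 lost its call. Hspa1a and Hspa1b, near-identical copies that counting could split, gave -0.38 and -0.39 and were not called. A day earlier 12 of the 20 fell and 1 rose, with a median of -0.24. Hsph1 then fell by 0.84 ± 0.09 on the log2 scale (limma adjusted p = 1.07e-05), and the steps differed by -0.03 ± 0.18 (limma adjusted p = 0.94). The steps' difference was called for 4 of the 20.

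Chaperones of the endoplasmic reticulum fell as well. Of 26 tested genes of the integrated stress and unfolded protein response 11 fell and 1 rose, with a median of -0.05, and a day earlier 12 fell and 0 rose. Hspa5, the chief HSP70 chaperone of the endoplasmic reticulum, had 18482, 18606, 19996 and 18459 at CT40 and 29322, 29964, 31416 and 30647 at CT36. The groups lay far apart, with a difference of -0.68 ± 0.08 (SE, limma adjusted p = 1.49e-06). Sdf2l1, another resident of that compartment, fell by 0.86 on the log2 scale, the calcium-binding chaperone Calr by 0.58, the disulfide isomerase Pdia4 by 0.55, and Xbp1, a transcription factor of the response, by 0.46.

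Besides these chaperones and Xbp1, the 11 that fell include the mitochondrial folate enzyme gene Shmt2 and Atf5, a relative of Atf4. Atf4, the transcription factor of the amino acid branch, was the one that rose (0.25 ± 0.06 SE, limma adjusted p = 0.00592), and its targets Asns, Trib3 and Ddit3 gave 0.10, 0.24 and 0.15 and were not called. For Atf4 the steps of both days differed by 0.29 (limma adjusted p = 0.00556), as it gave -0.04 a day earlier. For Hspa5 that difference was -0.09 (limma adjusted p = 0.66).

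Mitosis genes rose at CT40, and some replication genes fell. The mean log2 value of the mitosis list lay between 11.447 and 11.641 at CT40 and between 11.151 and 11.284 at CT36, without overlap. Of 24 mitosis genes 17 rose and 0 fell, with a median of 0.26. The count was 13 without CT36 replicate 4, 13 with replicates 2 and 3 averaged, 10 without CT40 replicate 4, and 7 with replicates 2 and 3 averaged and replicate 4 left out. Aurkb, a kinase of chromosome segregation, had 2125, 2312, 2100 and 2386 at CT40 and 1498, 1479, 1461 and 1250 at CT36, with no overlap. It rose by 0.65 ± 0.08 (SE, limma adjusted p = 7.18e-06). Aurka, a spindle pole kinase, rose by 0.54, Kif23, a motor of cytokinesis, by 0.53, and the survivin gene Birc5 by 0.52. Top2a, a topoisomerase of dividing cells, gave 0.01 and was not called.

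Of 26 genes of DNA replication and the G1/S transition 9 fell and 0 rose, with a median of -0.18, and 9 fell without CT36 replicate 4. The list's mean log2 value lay between 10.533 and 10.741 at CT40 and between 10.648 and 10.861 at CT36. These means overlapped, as CT36 replicate 4 lay below CT40 replicate 3. The number called lay between 6 and 9 with 1 of the 8 libraries left out. It was 7 with CT36 replicates 2 and 3 averaged, and 5 with replicate 4 also left out. Pola1, the catalytic subunit of DNA polymerase alpha, had 841, 855, 1018 and 1190 at CT40 and 1827, 1611, 1773 and 1703 at CT36. The groups did not overlap, and the difference was -0.84 ± 0.10 (SE, limma adjusted p = 5.75e-06). Mcm2, a subunit of the replicative helicase, fell by 0.43 on the log2 scale, and Uhrf1, a factor of DNA methylation upkeep, by 0.42. Ccnd1, a cyclin of G1, fell by 0.32 on the log2 scale (limma adjusted p = 9.17e-05).

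In the step a day earlier 0 of the 24 mitosis genes were called by limma, with a median of -0.04. The steps' difference was positive and called for 12 of them and for 10 with replicates 2 and 3 averaged, and for Aurkb it was 0.65 ± 0.10 (limma adjusted p = 2.8e-05). Means of Aurkb from CT28 to CT48 were 2281, 2100, 1422, 2231, 1639 and 1661, so CT36 held the lowest of the 6. Of the 26 replication genes 4 fell and 0 rose a day earlier, or 2 fell without CT16 replicate 1 or 2 or CT20 replicate 2. For these genes the steps' difference was negative and called for 3, or for 1 with CT36 replicates 2 and 3 averaged.

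Cytosolic ribosomal protein genes rose together, but by amounts that depend on the CT36 libraries. Of 28 tested 24 rose and 0 fell, with a median of 0.29. Rpl10a, of the large subunit, had 22966, 21094, 19183 and 21679 at CT40 and 18196, 14357, 14340 and 18616 at CT36. Its groups did not overlap, and CT36 replicates 2 and 3 lay well below replicates 1 and 4 (0.38 ± 0.08 SE, limma adjusted p = 0.00163). The mean log2 value of the list was 15.03, 14.86, 14.75 and 14.96 at CT40 and 14.76, 14.42, 14.51 and 14.76 at CT36, where CT40 replicate 3 lay below 2 of the CT36 libraries.

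The count of ribosomal protein genes called was 12 with replicates 2 and 3 averaged, 10 without CT36 replicate 2, 13 without CT40 replicate 1, 15 without CT40 replicate 4 and 25 without CT36 replicate 4. A day earlier limma called 0 of the 28, and the steps differed for 21, or for 10 with replicates 2 and 3 averaged. These are short transcripts, with a median length of 1139.5 nt against 3372 nt over tested genes. Across all genes the difference correlated weakly with length (Spearman -0.086), with a median of 0.066 in the shortest sixth and -0.009 in the longest. The list's members with the largest called differences, Rpl5, Rpl27, Rpl10a and Rpl32, kept their calls with the trend on length and GC content removed.

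Transport genes of the tubule fell at CT40. Of 26 proximal tubule transporters 9 fell and 0 rose, with a median of -0.34, and the same counts held without CT36 replicate 4 and with replicates 2 and 3 averaged. Slc5a12, a sodium-coupled lactate carrier (chromosome 2, 110597298 to 110647779, GRCm38), had 1997, 1794, 2022 and 1883 at CT40 and 3805, 4021, 4013 and 4297 at CT36. Both groups were tight and far apart, with a difference of -1.07 ± 0.10 (SE, limma adjusted p = 2.35e-07). Slc7a7, a basolateral amino acid exchanger subunit, fell by 0.73 on the log2 scale, Slc26a1, a sulfate exchanger, by 0.67, Slc2a2, the glucose carrier GLUT2, by 0.61, and Lrp2, the endocytic receptor megalin, by 0.47.

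A day earlier 4 of these 26 transporters rose and 0 fell, with a median of 0.13. The count was 1 without CT20 replicate 2, 2 without CT16 replicate 2 or 3 or CT20 replicate 1, and 7 without CT20 replicate 3. The steps' difference was negative and called for 15, and for 9 with replicates 2 and 3 averaged. It was -1.19 ± 0.17 for Slc5a12 (limma adjusted p = 1.92e-05). Means of Slc5a12 from CT28 to CT48 were 2040, 2692, 4034, 1924, 2426 and 3517, with CT36 the highest of the 6.

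**Figure D3:**
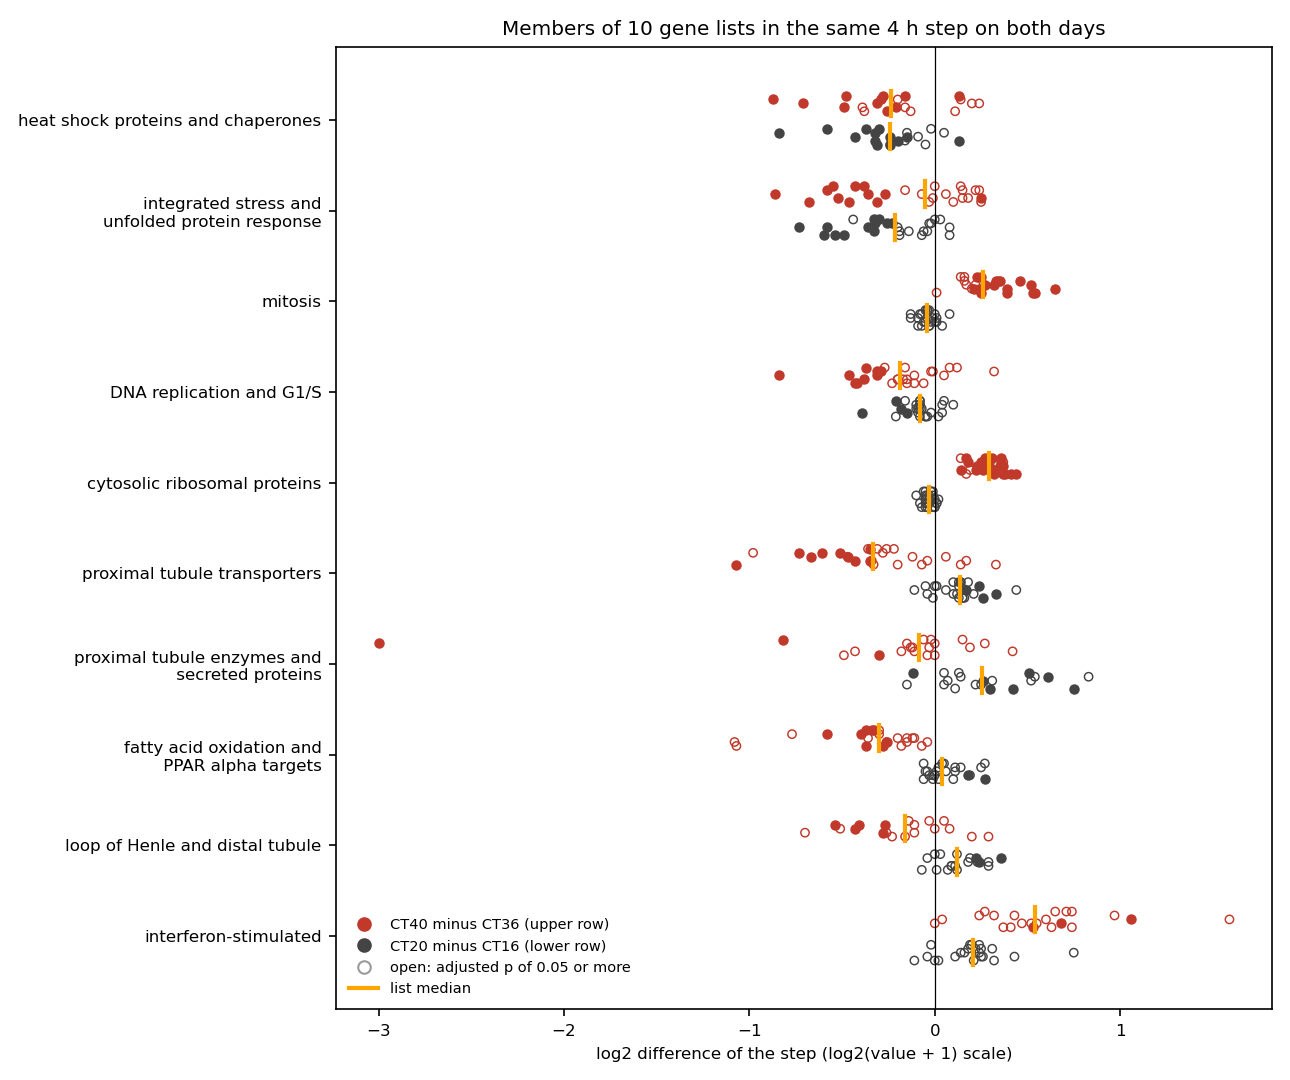
Log2 difference (x axis) of the members of 10 gene lists, with CT40 minus CT36 in the upper row of each list (red) and CT20 minus CT16 in the lower row (dark grey); filled points passed the test and the orange bar is the list median. The heat shock list has a median of -0.23 for CT40 minus CT36 and -0.24 for CT20 minus CT16, while the proximal tubule transporters have -0.34 and 0.13.

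Of 20 proximal tubule enzymes and secreted proteins 3 fell and 0 rose, beside 9.17% of all tested genes lower and 8.38% higher. The list's median was -0.09, with 6 positive and 14 negative differences. Gatm, which makes the creatine precursor, had 16324, 9177, 16344 and 11220 at CT40 and 23394, 22530, 23373 and 21671 at CT36, with no overlap (-0.82 ± 0.17 SE, limma adjusted p = 0.00329). Ass1, an enzyme of arginine synthesis, was low throughout, between 7 and 26 at CT40 and between 43 and 141 at CT36 (-3.00 ± 0.71 SE, limma adjusted p = 0.00591). Its call was lost with replicates 2 and 3 averaged and replicate 4 left out (limma adjusted p = 0.0752).

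Further along the nephron, 5 of 19 genes of the loop of Henle and distal tubule fell and 0 rose. The count was 3 without CT40 replicate 4, and 9.17% of all tested genes were lower. Slc12a1, the sodium-potassium-chloride carrier of the loop, had 18858, 18105, 22304 and 18629 at CT40 and 25723, 29587, 29901 and 27959 at CT36. The groups did not overlap (-0.54 ± 0.08 SE, limma adjusted p = 9.17e-05). A day earlier it rose by 0.22 (limma adjusted p = 0.00574), and the steps differed by -0.76 ± 0.10 (limma adjusted p = 2.96e-06). Umod, which encodes the main protein of normal urine, fell by 0.41 on the log2 scale, and lost its call without CT36 replicate 2 or 3 or CT40 replicate 4 and with replicates 2 and 3 averaged (limma adjusted p = 0.0583).

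Podocyte genes gave 4 falls and 0 rises among 18, beside 9.17% of all tested genes lower and 8.38% higher. There were 2 falls without CT36 replicate 2, 3 or 4 or CT40 replicate 1, 2 or 4, and 7 falls and 1 rise without CT40 replicate 3. Plce1, a phospholipase of the filtration barrier, had 832, 804, 733 and 931 at CT40 and 1070, 1099, 1144 and 1162 at CT36, without overlap (-0.44 ± 0.09 SE, limma adjusted p = 0.0015). Ptpro, a receptor phosphatase of podocytes, fell by 0.33 on the log2 scale. Wt1, their lineage factor, gave 0.16 and was not called (limma adjusted p = 0.0554).

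Fatty acid oxidation genes had negative differences in 23 of 23, with a median of -0.30 and 8 falls, beside 9.17% of all tested genes lower. The count was 6 without CT36 replicate 4, 5 with replicates 2 and 3 averaged, 5 without CT36 replicate 2 or 3 or CT40 replicate 1, 2 or 4, and 16 without CT40 replicate 3. Acadvl, which starts the breakdown of very long chains, had 4365, 3680, 5786 and 3526 at CT40 and 5387, 5885, 6128 and 5161 at CT36. CT40 replicate 3 lay among the CT36 libraries and the other 3 below all of them (-0.40 ± 0.10 SE, limma adjusted p = 0.0085). That library also had the highest sum of skeletal muscle genes, 4844, and the part of this tissue in the result was not tested. The peroxisomal enzyme Ehhadh fell by 0.58 on the log2 scale (limma adjusted p = 0.0438), and kept its call without CT40 replicate 3 but lost it when any other of the 8 libraries was left out (limma adjusted p = 0.0629 without CT36 replicate 4). Hk1, a hexokinase of glycolysis, fell by 0.46 on the log2 scale (limma adjusted p = 4.49e-05).

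Median differences were -0.06 for the nephron progenitor list, -0.02 for the ureteric bud tip list and 0.06 for the stromal list, beside 0.014 over all genes. Of 16 nephron progenitor genes 1 fell and 0 rose, of 12 ureteric bud tip genes 1 rose and 2 fell, and of 20 stromal genes 1 rose and 1 fell. Over all tested genes 8.38% were higher and 9.17% lower. Ros1, a receptor kinase of the ureteric tip list, had 556, 455, 607 and 557 at CT40 and 780, 841, 819 and 894 at CT36, without overlap (-0.62 ± 0.10 SE, limma adjusted p = 0.00016). Penk, the proenkephalin gene of the stroma list, rose by 0.26 (limma adjusted p = 0.00062). Sox8, of the tip list, rose by 0.60 (limma adjusted p = 0.0439) and lost its call without CT36 replicate 2 or 3 or CT40 replicate 1 or 2, with the replicate number as a block (limma adjusted p = 0.0504) and with replicates 2 and 3 averaged (limma adjusted p = 0.157).

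Interferon-stimulated genes had positive differences in 21 of 22, with a median of 0.54, but 3 rose, beside 8.38% of all tested genes higher. The mean log2 value of the list was 9.155, 9.741, 9.195 and 9.257 at CT40 and 9.209, 8.678, 8.64 and 8.543 at CT36. CT36 replicate 1 thus lay above CT40 replicates 1 and 3. The count of calls lay between 2 and 7 with 1 of the 8 libraries left out, and was 7 without CT36 replicate 1. It was 2 with CT36 replicates 2 and 3 averaged, and 0 with replicate 4 also left out. Gbp3, a guanylate-binding protein, had 641, 974, 669 and 688 at CT40 and 526, 315, 319 and 288 at CT36. The groups did not overlap, with CT40 replicate 2 highest and CT36 replicate 1 nearest to the CT40 libraries (1.06 ± 0.25 SE, limma adjusted p = 0.00519). Gbp3 lost its call with CT36 replicates 2 and 3 averaged and replicate 4 left out (limma adjusted p = 0.0992). The macrophage and leukocyte list summed to between 8274 and 9649 at CT40 and between 8745 and 10009 at CT36, and its part in the result was not tested.

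The list counts of this paragraph stand beside 8.38% of all tested genes higher and 9.17% lower. Of 20 immediate early genes 2 fell, near that share, and both falls were lost without CT36 replicate 4, where 0 fell and 1 rose. Egr1, an early-response transcription factor, had 901, 1141, 950 and 749 at CT40 and 1295, 1435, 1507 and 5036 at CT36. CT36 replicate 4 stood far above the rest, and the difference was -1.07 with it (limma adjusted p = 0.0312) and -0.61 without it (limma adjusted p = 0.0549). The call was also lost without CT40 replicate 1 or 4. Of 24 genes of cholesterol synthesis and SREBP targets 6 rose and 1 fell, and between 2 and 4 were called without CT36 replicate 1 or 3 or CT40 replicate 1 or 2. Insig1, a brake on SREBP processing, rose by 0.44 ± 0.10 (SE, limma adjusted p = 0.00483). Of 15 SR proteins and splicing kinases 4 rose and 2 fell, and Tra2a, a splicing activator, fell by 0.52 on the log2 scale (limma adjusted p = 0.00351).

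Tfrc, the transferrin receptor that imports iron into dividing and erythroid cells, had 3933, 3198, 4390 and 3972 at CT40 and 6776, 5734, 5954 and 7002 at CT36. The groups lay well apart (-0.72 ± 0.08 SE, limma adjusted p = 9.78e-07). Tfrc is itself on the erythroid list, where it was the 1 of 5 tested genes that was called. The other 6 erythroid genes in the table summed to between 867 and 1869 at CT40 and between 975 and 1106 at CT36, so these sums overlapped, and the median difference of the 5 tested genes was 0.04.

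The 10 largest rises and 10 largest falls were chosen for that difference and for groups that do not overlap, so their values describe them and support nothing further; 1579 genes (10.9%) met the rule for such a choice. Ptbp2, a neuronal relative of the splicing repressor PTB (chromosome 3, 119718742 to 119784466, GRCm38), had 3351, 3488, 2712 and 3930 at CT40 and 1782, 1606, 1624 and 1507 at CT36. Its difference was 1.04, and the same step a day earlier gave 0.12. Gsdmc3 and Gsdmc2, gasdermins that lie side by side on chromosome 15, had the largest and the fourth largest falls of this group. Gsdmc3 averaged 91.0 at CT40 and 321.2 at CT36 (n = 4 each), a difference of -1.77 ± 0.25 (SE), and Gsdmc2 averaged 152.0 at CT40 and 366.2 at CT36, a difference of -1.27 ± 0.23. They are close copies, so counting could split reads between them.

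Among the other rises, Tbc1d10c gave 1.19, the fibrinogen alpha chain gene Fga 1.12, and Brdt and Dmc1, both known from germ cells, 1.06 and 0.91. Fga averaged 430.8 ± 88.9 at CT40 and 200.5 ± 59.2 at CT36 (SD, n = 4 each), and it is also a member of the liver list, whose mean log2 value was higher in all 4 CT40 libraries; the part of liver tissue in this difference was not tested. Fam196b gave 1.26 and averaged 129.2 ± 49.2 at CT40 and 51.25 ± 10.3 at CT36 (SD, n = 4 each). Among the other falls, Npsr1, a neuropeptide S receptor, gave -1.34, the sodium-proton exchanger gene Slc9a4 -1.21, and Inpp5j, a phosphoinositide phosphatase, -1.15.

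**Figure D4:**
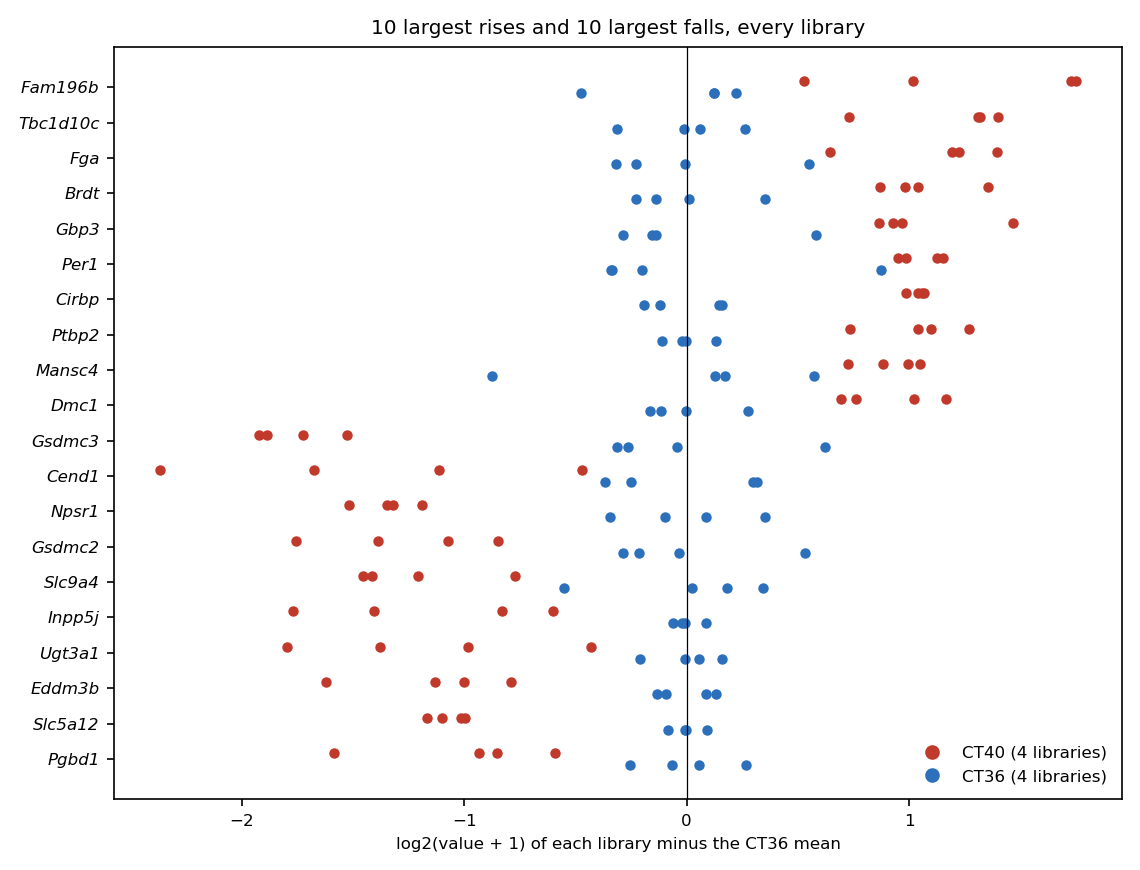
Each library's log2(value + 1) minus the CT36 mean (x axis) for the 10 largest rises and 10 largest falls, with CT40 libraries in red above CT36 libraries in blue for each gene. By the naming rule the groups do not overlap; the CT40 libraries of Cirbp and Slc5a12 lie close together, and those of Cend1 are spread widely.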

How the data were processed

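The values are a score: the deposited table is named for counts, but its whole numbers have library totals and upper quartiles too alike for raw counts, so the authors normalised them before rounding, by a step not given in the sources used here. Depth is unknown, no counting interval was computed, and the count test was replaced by limma. The submitters' processing notes list featureCounts 1.5.0-p3, STAR 2.5.2b and bcl2fastq, with mm10 as the build. Whether strand was used in counting is not given there, so overlapping genes and close copies are uncertain. The second deposited table was not used.

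Limma 3.58.1 in R 4.3.3 was fitted to log2(value + 1) with 1 mean per time point and with trended, robust moderation of the variances, leaving out genes whose mean was under 10. A log2(value + 1) difference understates changes of low genes. CT40 against CT36 used the 24 libraries CT28 to CT48, CT20 against CT16 the 27 libraries CT0 to CT24, and the difference of the steps all 51, with library weights per series. On simulated data with 100 genes changed by 0.5 and 100 by 1, CT40 against CT36 recovered 73% and 90% among 14542 genes. CT20 against CT16 recovered 88% and 95%, and the difference of the steps 61% and 87%. Unchanged genes made up 4.12%, 4.69% and 10.8% of the calls. The simulated noise was independent between libraries and between genes. It held no tied libraries, no library standing apart and no litter effect, so these shares need not hold for the deposited values. Deviations of same-numbered CT40 and CT36 libraries correlated at 0.372, 0.254, 0.384 and 0.219. No label says what a replicate number marks, so the main fit is unpaired and the number was used as a block in an alternative fit. CT40 replicate 3 correlated best with CT36 replicate 2.

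The comparison, the members and the 39 gene lists were chosen with earlier results of these data known. Named genes are the 10 largest rises and falls called with and without CT36 replicate 4, with groups that do not overlap and a mean of at least 69.4, the clock and cold-inducible lists, and up to 4 called members of each other list. The ranks skip predicted genes, pseudogenes and sex-linked genes. Members named in the text outside this rule were chosen after their values were seen. One gene of the proximal tubule enzyme list is not reported here. Gene positions are from GENCODE M21.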

Additional observations from a re-analysis of the deposited data

Results flagged for a closer look

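A library far from the other 3 of its group was found in 15 of the 238 groups of named genes (6.3%), and chance gives about 1 in 20. Of these, 6 were CT40 replicate 3, 5 CT36 replicate 4, 3 CT36 replicate 1 and 1 CT40 replicate 2. CT40 replicate 3 had values of 96 for Tbc1d10c, 3075 for Egfl7, 3379 for Cpt2, 19996 for Hspa5, 17404 for Sdha and 235 for Ttn. The other 3 CT40 libraries had 144 to 153, 3904 to 4055, 2198 to 2341, 18459 to 18606, 15298 to 15531 and 67 to 74 for the same genes. CT36 replicate 4 had 36 for Fam196b, 2874 for Per1, 63 for Egr2, 5036 for Egr1 and 1250 for Aurkb, where the other 3 had 55 to 59, 1240 to 1366, 40 to 41, 1295 to 1507 and 1461 to 1498. CT36 replicate 1 had 526 for Gbp3, 982 for Cry1 and 4809 for Pax8, against 288 to 319, 1259 to 1304 and 5082 to 5129. CT40 replicate 2 had 974 for Gbp3, against 641 to 688.

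The difference between the CT40 and CT36 step and the step a day earlier, on the log2 scale, passed limma's test (adjusted p under 0.05) for 60 of the 119 named genes, beside 15.5% of all genes tested. Most of the named genes were called for CT40 against CT36, which is 1 term of this difference, so the count partly follows from how they were chosen. Positive differences were found for Fam196b (1.04), Ptbp2 (0.91), Dmc1 (0.86), Tbc1d10c (0.81) and Brdt (0.78), for the clock genes Per2 (0.73), Cry1 (0.62) and Tef (0.48), and for the splicing factor Srsf2 (0.36). Mitosis genes Aurkb (0.65), Birc5 (0.65), Kif23 (0.60) and Aurka (0.49), ribosomal protein genes Rpl5 (0.52), Rpl27 (0.46), Rpl10a (0.40) and Rpl32 (0.38), and Penk (0.20) were also positive. Negative differences were found among the largest falls for Gsdmc3 (-1.75), Npsr1 (-1.57), Slc9a4 (-1.32), Ugt3a1 (-1.25), Gsdmc2 (-1.24), Slc5a12 (-1.19), Inpp5j (-1.14), Cend1 (-1.10), Eddm3b (-1.01) and Pgbd1 (-1.0). The proximal tubule gave Ass1 (-3.83), Gatm (-0.87), Slc7a7 (-0.86), Slc26a1 (-0.82), Slc2a2 (-0.61) and Aadat (-0.60). The loop and distal tubule gave Umod (-0.77), Slc12a1 (-0.76), Ptger3 (-0.67) and Ppp1r1a (-0.37). Podocyte genes gave Plce1 (-0.47), Ptpro (-0.30) and Nphs1 (-0.29). Metabolic and antioxidant genes gave Gpx3 (-0.85), Ehhadh (-0.83), Hk1 (-0.56), Acaa2 (-0.48), Acadvl (-0.43), Cpt2 (-0.41), Cat (-0.34) and Sdha (-0.22). The other negative differences were Egr2 (-1.36), Egr1 (-1.0), Lyz2 (-0.75), Pola1 (-0.74), Ros1 (-0.64), Tfrc (-0.57), Mylk (-0.41), Crym (-0.39), Eng (-0.39), Uhrf1 (-0.38) and Ccnd1 (-0.25). In the self-test, whose simulated libraries were independent, 10.8% of the calls for this difference were unchanged genes.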

How the results depend on the processing

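CT40 against CT36 gave 2553 calls, between 1737 and 2761 when any 1 of the 8 libraries was left out, 4617 with all 51 libraries in the fit, 4607 with library quality weights, and 1086 with CT36 replicates 2 and 3 averaged and replicate 4 left out, which removes 2 of 4 samples. The replicate number as a block gave 2817 calls and ended 1 named call, Sox8. CT20 against CT16 gave between 521 and 1783 calls with a library left out, and the difference of the steps 1472 with CT36 replicates 2 and 3 averaged. Without a trend on transcript length and GC content 2860 genes were called and 39.4% of them were higher, against 47.7% before. Of the named genes that were called, 49 kept their call in every alternative run, and 0 reversed. Genes that reversed were near 0 and not called; with a library left out, Arntl lay between -0.04 and 0.14, Npas2 between -0.19 and 0.03, Bhlhe40 between -0.09 and 0.02, Nr1d1 between -0.01 and 0.11, and Rora between -0.03 and 0.28. Without CT36 replicate 4 Npas2 gave 0.03, Bhlhe40 0.02 and Dbp -0.08, and the difference of the steps gave 0.04 for Arntl and 0.04 for Npas2. Without CT40 replicate 2 Arntl gave -0.04 and Dbp -0.01, and without CT40 replicate 3 Bhlhe40 gave 0.00, Nr1d1 -0.01 and Dbp -0.08. Without CT40 replicate 4 Npas2 gave 0.00, and without CT36 replicate 1 Rora gave -0.03. Quality weights gave 0.02 for Npas2, 0.07 for Bhlhe40, -0.03 for Nr1d1 and -0.04 for Rora. Averaging replicates 2 and 3 with replicate 4 left out gave 0.09 for Npas2 and -0.12 for Dbp, and leaving out CT40 replicate 3 and CT36 replicate 4 gave 0.07 for Bhlhe40, -0.06 for Nr1d1 and -0.17 for Dbp. Dbp gave -0.01 with quantile normalisation, -0.01 without the length and GC trend, and -0.01 with that and the block. The difference of the steps for Nfil3 was -0.02 with replicates 2 and 3 averaged. The causes were not tested, and alternatives on averaged libraries, pairs left out, and length and GC were added after seeing the data. Unknown depth leaves low genes such as Ass1 and Egr2 least certain.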

Other observations

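Calls among other cell types and pathways of the fetal kidney in CT40 against CT36 are given here, beside 8.38% of all tested genes higher and 9.17% lower. Of 15 collecting duct principal cell genes 0 rose and 2 fell. The second, the sodium pump regulator gene Fxyd4, lost its call whichever of the 8 libraries was left out (limma adjusted p between 0.0677 and 0.096). The first, Avpr2, the vasopressin receptor that sets water uptake, averaged 367.2 ± 51.1 at CT40 and 518.5 ± 30.6 at CT36 (SD, n = 4 each; -0.51, limma adjusted p = 0.0142; call lost without CT40 replicate 3). Of 13 intercalated cell genes 1 fell, the anion exchanger Slc4a9 (-0.31, limma adjusted p = 0.0361), which lost its call without CT36 replicate 2, 3 or 4 or CT40 replicate 2 or 4 (limma adjusted p = 0.0891 without CT36 replicate 4). Of 18 endothelial genes 2 rose and 1 fell, and 1 was called without CT36 replicate 2; Egfl7, secreted by endothelium, rose by 0.34 and the receptor Eng fell by 0.23 on the log2 scale, a call lost without CT36 replicate 2. The other rise, of the tight junction gene Cldn5, was lost when any library other than CT40 replicate 1 was left out, and with CT36 replicates 2 and 3 averaged (limma adjusted p = 0.074). Of 14 mural and smooth muscle genes 1 fell, the myosin kinase gene Mylk (-0.26, limma adjusted p = 0.00939). Of 17 macrophage and leukocyte genes 1 fell, the lysozyme gene Lyz2 (-0.42, limma adjusted p = 0.0128; lost without CT40 replicate 2 or CT36 replicate 4, adjusted p = 0.0546 in the last).

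Of 18 early nephron and Notch genes 1 rose, Pax8 (0.21, lost without CT36 replicate 1 or 2 or CT40 replicate 2, 3 or 4), and 1 fell, Ccnd1 (-0.32). Of 21 antioxidant and metallothionein genes 1 rose, Hmox1, the haem-degrading enzyme (0.63, limma adjusted p = 0.0452; lost when any CT36 library or CT40 replicate 2 or 4 was left out), and 4 fell, among them Gpx3, a secreted peroxidase made by the proximal tubule, which averaged 57120 ± 4670 at CT40 and 81800 ± 6320 at CT36 (SD, n = 4 each; -0.52, limma adjusted p = 0.00815). Without CT40 replicate 2 the antioxidant list had 0 rises and 2 falls, and without CT36 replicate 1, 2 or 3 or CT40 replicate 4 it had 0 rises and 3 falls. Of 28 hypoxia and glycolysis genes 1 rose and 2 fell, or 0 and 1 without CT40 replicate 2. Of 28 oxidative phosphorylation genes 0 rose and 1 fell. Without CT36 replicate 4 that list had 3 rises and 1 fall, without CT36 replicate 1 it had 2 and 2, without CT36 replicate 2 it had 0 and 2, without CT40 replicate 2 or 3 it had 1 and 1, and with the replicate number as a block 3 and 2. Of 20 matrix genes outside type IV collagen 1 rose, Sparc, and 0 fell. Limma called 0 of them without CT36 replicate 2, 3 or 4 or CT40 replicate 1 and with quantile normalisation, where Sparc gave 0.08 (limma adjusted p = 0.365). Without CT36 replicate 1 there were 1 rise and 1 fall, and without CT40 replicate 3 there were 2 falls. Of 20 glucocorticoid response genes 1 rose, Per1. Without CT36 replicate 4 there were 3 rises and 1 fall, without CT40 replicate 1 there were 3 rises, without CT40 replicate 3 there were 1 rise and 1 fall, and without CT36 replicate 1, 2 or 3 or CT40 replicate 2 or 4 limma called 0. In limma 0 of 6 adrenal, 0 of 2 adipose and 0 of 4 sex-linked genes were called. The Y-linked gene Uty was called lower without CT36 replicate 4 (-0.87, limma adjusted p = 0.0146). The same held with the trend on length and GC content removed (-0.72, limma adjusted p = 0.0349). The part of fetal sex in the result was not tested. Of 5 clock nuclear receptors 1 rose, Nr1d2, and of 4 PAR bZIP factors 1 rose, Tef.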
